A study of Homo sapiens with 4 samples.

Results

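Epithelial to mesenchymal transition (EMT) is the change by which epithelial cells lose their junctions and take on features of motile mesenchymal cells. Described here are 10 genes that set or mark this switch: the transcription factors SNAI1, SNAI2, ZEB1, ZEB2 and TWIST1, the adhesion and cytoskeleton genes CDH1, CDH2 and VIM, and the epithelial regulators ESRP1 and GRHL2. They were chosen by name, and every probe set that the platform annotation assigns to one of them was taken. This gave 21 of the 54675 probe sets on the array, each naming 1 gene only, and all 10 genes had at least 1 probe set.

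The cells were SW620, a human line grown from a lymph node metastasis of colon adenocarcinoma. Magnetic sorting split the line by CD133, 1 sorted cell from either fraction was grown out as a clone, and a further CD133 sort preceded the RNA extraction. The CD133+ group is 1 clone (CPC1) on 2 arrays and the CD133- group is 1 clone (CNC1) on 2 arrays, and the labels name no drug in either. CD133 status and clone cannot be told apart, and since the labels do not name separate cultures behind the replicate arrays, p-values cover array-to-array spread alone, which may be technical. The design text gives as the purpose a comparison of populations that may differ in tumour formation and drug response.

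In normal colon epithelium CDH1 (E-cadherin) holds neighbouring cells together and ESRP1 and GRHL2 maintain the epithelial state. SNAI, ZEB and TWIST proteins repress CDH1 and other epithelial genes, and cells that have gone through the switch often carry CDH2 (N-cadherin) and the filament protein vimentin (VIM). In colon tumours intermediate states that carry markers of both kinds are common.

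Values are log2 signals after quantile normalization, ± gives the SD of a clone's 2 arrays, and differences are CD133+ minus CD133-. The deposited array medians ran from 4.45 to 4.60. Across genes, Pearson's r was 0.992 for each pair of arrays within a clone and 0.977 to 0.988 for pairs across clones. PROM1, which encodes CD133 and checks the sort, had 8.59 ± 0.19 (SD, n = 2) in CD133+ cells, against 3.33 ± 0.029 (SD, n = 2) in cells of the CD133- clone. The colon epithelial markers EPCAM, KRT8, VIL1 and CDH17 were above the level filter in both clones and did not pass the test. None of the 10 tested markers of that list passed in limma, and KRT20 lay below the filter. Of the 10, 3 had an unadjusted p under 0.05, against 20.6% of all genes. The ACTB control probe sets at the 3' and 5' ends have a gap that widens as RNA shortens. It was 0.71 and 1.92 log2 units in CD133+ replicates 1 and 2, and 1.18 and 0.92 in the CD133- replicates. For GAPDH the gap was 0.097 and 0.090 in CD133+ replicates 1 and 2, and 0.017 and 0.026 in the CD133- replicates.

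SNAI2 was the member that differed between the clones past the threshold. It fell in CD133+ cells by 0.58 on the log2 scale, which is 1.49-fold. CDH1 and VIM, markers of the opposite ends of the switch, both had brighter signals from their brightest probe sets on the CD133+ arrays, and neither passed. ZEB2 and TWIST1 lay below the level filter on all their probe sets. In the fit with 1 probe set per gene, 8 of the 10 genes were above the filter, 1 of them was lower in CD133+ cells and 0 were higher at a limma adjusted p under 0.05. Over all 15821 genes tested, 2.34% were lower and 1.31% higher by this rule, 3.65% in all. At an unadjusted p under 0.05 there were 3 of the 8, SNAI2, CDH1 and VIM, against 20.6% of all genes. When the 21 probe sets were tested one by one among 54613, 0 passed in limma, against 0.181% of all probe sets (0.0494% higher and 0.132% lower), and 4 had an unadjusted p under 0.05, against 12.7% of all.

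**Figure D1:**
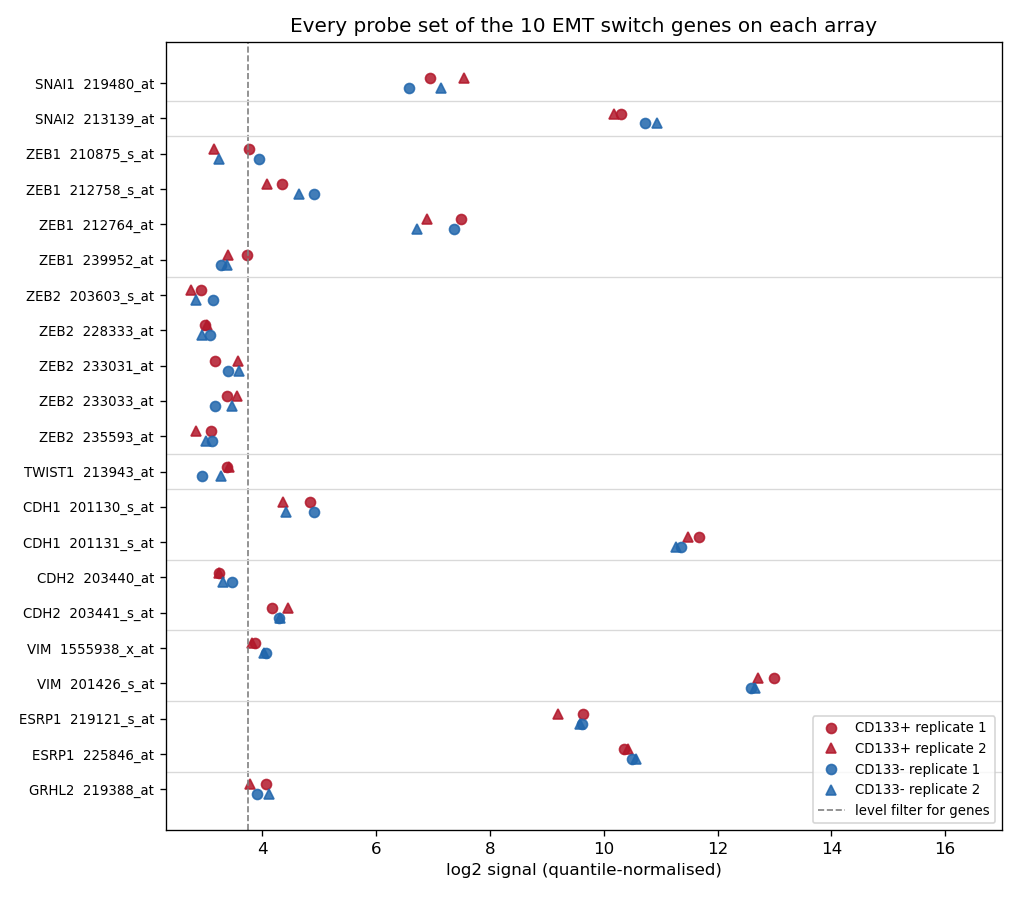
Log2 signal (x axis) of each of the 21 probe sets on each of the 4 arrays, CD133+ in red above CD133- in blue, circles for replicate 1 and triangles for replicate 2. The dashed line is the level of 3.75 below which genes were left out, and SNAI2 shows both CD133+ arrays (10.31 and 10.18) below both CD133- arrays (10.72 and 10.93).

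The SNAI genes encode zinc finger repressors that bind E-box letters in the promoters of CDH1 and other epithelial genes. SNAI2 (Slug; 213139_at, chromosome 8, its 1 probe set) had a signal of 10.31 and 10.18 on the CD133+ arrays, against 10.72 and 10.93 on the CD133- arrays. The clones did not overlap, and each clone's own arrays lay closer to each other than to any array of the other clone. The difference was -0.58 (SE 0.10, limma 95% interval -0.81 to -0.34, adjusted p = 0.0249 over 15821 genes). The fit of all 54613 probe sets has its own shared spread and more tests. There the same difference had an SE of 0.11 and a limma adjusted p of 0.0923. Leaving out CD133- replicate 1 gave -0.68 (adjusted p = 0.0589) and leaving out CD133- replicate 2 gave -0.47 (adjusted p = 0.0968), so the call needs both CD133- arrays. A variance without the trend on level gave a limma adjusted p of 0.141. A fit to the mean of each gene's probe sets kept the SNAI2 difference at -0.58, since SNAI2 has 1 probe set. Its limma adjusted p there was 0.0511, in a fit that called 247 genes against 577.

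The scaling between arrays moved the median difference of all genes, from 0.058 after quantile normalization to 0.028 without it and -0.051 with each array centred on its median, a shift of 0.109. Relative to that median, SNAI2 was at -0.63 under each of these 3 scalings, and its limma adjusted p was 0.0249, 0.0352 and 0.0270. The share of called genes that were higher in CD133+ cells was 35.9%, 21.3% and 11.3% under the same scalings. SNAI2 lies on chromosome 8, where the 20 tested genes around it, 10 on each side, had a median difference of -0.021 and 0 of them were called.

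The 3 genes outside the list whose pattern over the 4 arrays lay nearest to that of SNAI2, by Euclidean distance after each gene was centred on its mean, were RNFT2 (distance 0.039), LURAP1L (0.040) and IDI1 (0.057). Their differences were -0.56, -0.58 and -0.57. Of these IDI1, isopentenyl diphosphate isomerase of sterol synthesis, passed (limma adjusted p = 0.0288). IDI1 did not pass without CD133- replicate 1 (0.0949), without CD133- replicate 2 (0.107), with a variance without trend (0.141) or when its probe sets were averaged, where its difference was -0.28 (0.315). With 4 arrays, nearness of this kind is a description only.

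SNAI1 (Snail; 219480_at, chromosome 20, its 1 probe set) had 6.95 and 7.54 on the CD133+ arrays, against 6.58 and 7.13 on the CD133- arrays. The clones overlapped, and in each clone replicate 2 was the brighter array by more than the clones differed. The difference of SNAI1 was 0.39 (SE 0.26, limma 95% interval -0.21 to 0.98, adjusted p = 0.436), an interval that reaches close to a doubling. Leaving out 1 array at a time moved it between 0.090 and 0.68. The 20 tested genes around SNAI1 had a median difference of 0.078, with 16 of 20 positive, against 58.5% of all genes. A test of the difference between SNAI1 and SNAI2 themselves was not run, so their unlike signs are given as values only.

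ZEB1, a repressor with zinc fingers at both ends of the protein, was read by 4 probe sets on chromosome 10, and they did not share a direction. The brightest, 212764_at, had 7.49 and 6.89 on the CD133+ arrays against 7.36 and 6.72 on the CD133- arrays, so replicate 1 exceeded replicate 2 by more than the clones differed. Its difference was 0.15 (SE 0.27, limma adjusted p = 0.795), and the sign turned to -0.024 without quantile normalization and -0.10 with arrays centred on their medians. The probe set 212758_s_at had 4.35 and 4.08 on the CD133+ arrays, against 4.91 and 4.65 on the CD133- arrays, without overlap. Its difference was -0.56 (SE 0.21, limma unadjusted p = 0.0312, adjusted p = 0.337). In that probe set too replicate 1 was the brighter array of each clone.

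The other ZEB1 probe sets were dim. For 210875_s_at the signal was 3.76 and 3.15 in CD133+ and 3.94 and 3.24 in CD133- cells, again with replicate 1 above replicate 2 in each clone. For 239952_at it was 3.73 and 3.40 in CD133+ and 3.28 and 3.37 in CD133- cells. Their differences were -0.14 and 0.24, with limma adjusted p of 0.876 and 0.558. Over its 4 probe sets ZEB1 thus had 2 of each sign, and the mean of its probe sets differed by -0.078 (adjusted p = 0.874).

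SNAI and ZEB zinc fingers are known to bind the letters CACCTG, read as CAGGTG on the other strand, a form of E-box. The sequence table (RefSeq, GRCh38.p14) held promoter windows for 4 of the 10 genes, and both orientations of this motif were searched in the 250 bases before each start. ZEB1 had 7 windows, of which 2 held it, with 3 copies in all. It was not found in the 2 windows of CDH2 or in the single windows of VIM and ZEB2, and 17.5% of all 35116 windows in the table held it. The ZEB1 window with 2 copies is shown, since it had the most copies of the 11 member windows. Of all windows 2.53% held 2 or more copies, but a window picked for its copies cannot be judged by that share. The window shown is chr10:31318966-31319215 on the plus strand, with the motif in capitals, starting 242 and 85 bases before the transcript start. A match describes these letters and is not a measured binding site.

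ZEB1 promoter: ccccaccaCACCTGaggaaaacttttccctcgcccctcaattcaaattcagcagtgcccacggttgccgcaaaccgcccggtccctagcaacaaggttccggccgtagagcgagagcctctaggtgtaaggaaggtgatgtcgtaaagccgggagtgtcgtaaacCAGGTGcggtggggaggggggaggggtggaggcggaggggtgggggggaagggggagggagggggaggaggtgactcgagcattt

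ZEB2, the close relative of ZEB1, was read by 5 probe sets, and all of them lay below the level filter on every array. Their signals ran from 2.75 to 3.57 in CD133+ and from 2.84 to 3.59 in CD133- cells. The differences ran from -0.15 to 0.15, with 3 of 5 negative, and the clones overlapped in all 5. None passed, with limma adjusted p between 0.645 and 0.990 over all probe sets, and signals this low limit what the arrays can show of ZEB2. ZEB2 lies on chromosome 2, and the 10 tested genes nearest to it, 5 on each side, had a median difference of -0.56. Of these 2 were lower and 0 higher in limma, against 2.34% and 1.31% of all genes. The nearest 20 had a median of -0.076, with 3 lower and 0 higher, and the nearest 50 a median of -0.067, with 7 lower and 1 higher.

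TWIST1, a basic helix-loop-helix factor of the mesoderm, had 1 probe set, 213943_at, with 3.38 and 3.41 on the CD133+ arrays, against 2.94 and 3.26 on the CD133- arrays. The clones did not overlap, but all 4 signals were below the level filter. The difference was 0.29 (SE 0.14, limma unadjusted p = 0.0681, adjusted p = 0.433 over all probe sets, and 0.317 in the fit of genes with no level filter). TWIST1 lies on chromosome 7, where the 20 tested genes around it had a median difference of 0.24. Of these 15 were positive, 3 higher and 0 lower in limma, against 58.5%, 1.31% and 2.34% of all genes. Without CD133- replicate 1 the TWIST1 difference was 0.13 and without CD133- replicate 2 it was 0.45. Whether a shift of this stretch of the chromosome has a part in it was not tested.

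**Figure D2:**
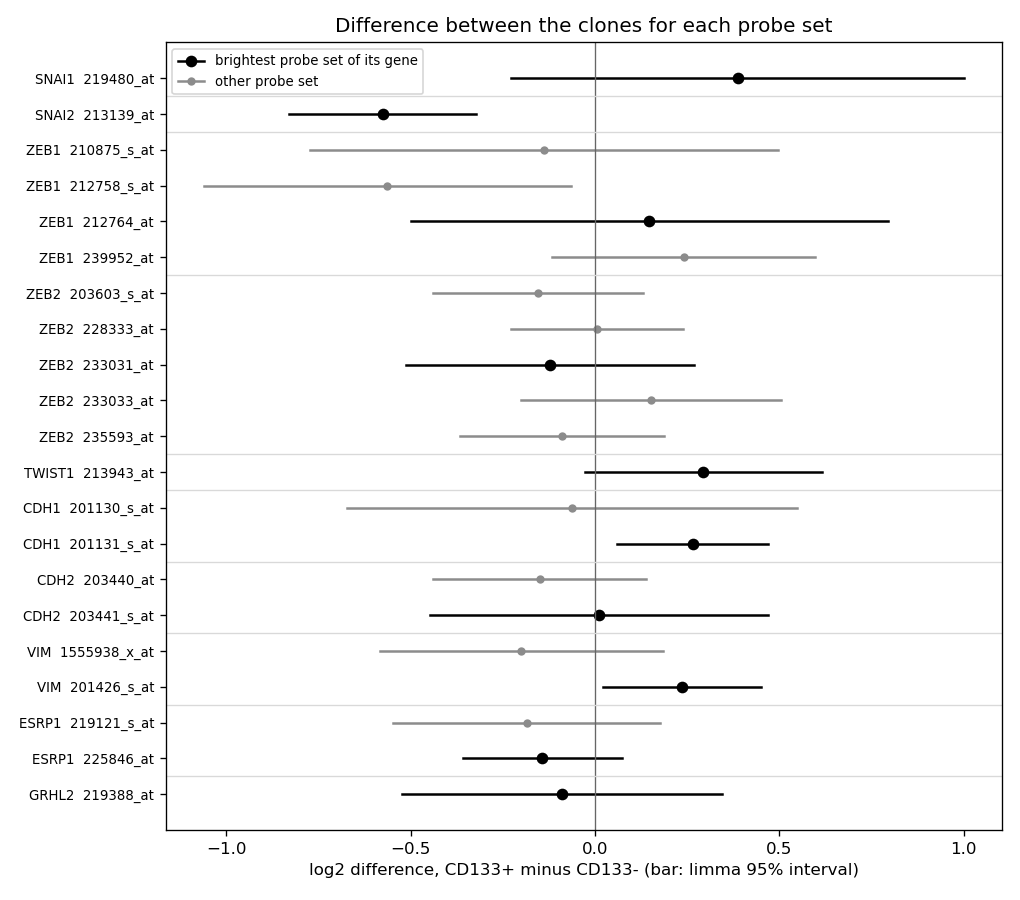
Log2 difference of each probe set, CD133+ minus CD133- (x axis), with its limma 95% interval, in black for the brightest probe set of a gene and in grey for the others. The interval of SNAI2 lies farthest from 0 (-0.83 to -0.32 in the fit of all probe sets), and the 2 probe sets of CDH1, and those of VIM, stand on opposite sides of 0, while ZEB1 has 2 on each side.

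CDH1, the E-cadherin of adherens junctions, was bright in both clones. Its probe set 201131_s_at on chromosome 16 had 11.67 and 11.49 on the CD133+ arrays, against 11.35 and 11.28 on the CD133- arrays. The clones did not overlap. The difference was 0.26 (SE 0.089, 1.20-fold, limma 95% interval 0.061 to 0.47, unadjusted p = 0.0172, adjusted p = 0.149). It did not pass over all genes. Leaving out 1 array at a time moved the CDH1 difference between 0.17 and 0.36, with the largest value without CD133+ replicate 2.

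The second CDH1 probe set, 201130_s_at, was far dimmer, with 4.83 and 4.36 on the CD133+ arrays, against 4.90 and 4.41 on the CD133- arrays. It showed no separation of the clones, and again replicate 1 was brighter in each. Its difference was -0.062 (SE 0.26). The mean over both CDH1 probe sets, which gives the dim one equal weight, differed by 0.10 (limma adjusted p = 0.774). The 20 tested genes around CDH1 on chromosome 16 had a median difference of 0.17, with 15 of 20 positive, against 58.5% of all genes.

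CDH2, the N-cadherin of neural and mesenchymal cells, was dim in both clones. Its brighter probe set, 203441_s_at on chromosome 18, had 4.17 and 4.45 on the CD133+ arrays, against 4.28 and 4.32 on the CD133- arrays, with a difference of 0.011 (SE 0.18, limma 95% interval -0.40 to 0.43, adjusted p = 0.979). The CD133- arrays lay between the CD133+ arrays. The probe set 203440_at, below the level filter, had 3.23 and 3.24 in CD133+ and 3.47 and 3.30 in CD133- cells, a difference of -0.15 (SE 0.12, adjusted p = 0.661).

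VIM, the intermediate filament of mesenchymal cells, was among the bright signals in both clones. Its probe set 201426_s_at on chromosome 10 had 12.99 and 12.71 on the CD133+ arrays, against 12.58 and 12.65 on the CD133- arrays. The clones did not overlap, but CD133+ replicate 2 lay within 0.1 of CD133- replicate 2. The difference was 0.24 (SE 0.098, 1.18-fold, limma 95% interval 0.0098 to 0.46, unadjusted p = 0.0428, adjusted p = 0.224). VIM did not pass, and its value rested on 1 array. Without CD133+ replicate 1 it was 0.093 (adjusted p = 0.578), and without CD133+ replicate 2 it was 0.38 (adjusted p = 0.0174).

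The dimmer VIM probe set, 1555938_x_at, whose name marks it as one that may read other transcripts, had 3.87 and 3.81 in CD133+ and 4.06 and 4.02 in CD133- cells. The direction was opposite to that of the bright probe set, at -0.20 (SE 0.16, limma adjusted p = 0.661). The mean of both was 0.018 (adjusted p = 0.956).

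ESRP1, a splicing factor that keeps the epithelial isoforms of genes such as CD44 and FGFR2, was bright in both clones. Its probe set 225846_at on chromosome 8 had 10.36 and 10.42 on the CD133+ arrays, against 10.50 and 10.57 on the CD133- arrays. The clones did not overlap, although all 4 arrays lay close together. The difference was -0.14 (SE 0.086, limma 95% interval -0.34 to 0.055, adjusted p = 0.384), so the interval leaves out a change of 2-fold in either direction. The second probe set, 219121_s_at, had 9.63 and 9.20 in CD133+ and 9.61 and 9.59 in CD133- cells, with CD133+ replicate 2 apart from the others. Its difference was -0.19 (SE 0.16), and without CD133+ replicate 2 it was 0.032. The values measure the ESRP1 transcript and say nothing of the splicing it controls.

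GRHL2, a grainyhead-like factor that activates CDH1 and represses ZEB1, was read by 219388_at on chromosome 8, its 1 probe set. It had 4.06 and 3.79 on the CD133+ arrays, against 3.91 and 4.11 on the CD133- arrays. The clones overlapped and the signal was just above the level filter of 3.75. The difference was -0.090 (SE 0.17, limma 95% interval -0.49 to 0.31, adjusted p = 0.803).

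Over the 8 tested genes the differences ran from -0.58 to 0.39 with a median of 0.079, close to the median of 0.058 over all genes. Of the 8, 5 had a positive and 3 a negative sign, and 58.5% of all genes were positive. The arrays of the clones did not overlap in 4 of the 8, 2 higher and 2 lower in CD133+ cells, against 51.6% of all genes (30.4% higher and 21.2% lower). Over the 21 probe sets 9 were positive and 12 negative, and 52.7% of all probe sets were positive. In 9 of the 21 the clones did not overlap, 4 higher and 5 lower, against 43.9% of all probe sets (23.5% higher and 20.4% lower). These shares were near the background.

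Related genes were read from lists written down for this comparison with earlier results of these data known. Of 15 other EMT transcription factors 0 rose, 0 fell and 15 did not pass in limma, with a median difference of 0.20. PRRX1, a homeobox factor of mesenchyme, had 4.998 and 4.85 on the CD133+ arrays against 4.08 and 4.22 on the CD133- arrays. It differed by 0.77 (SE 0.18, limma adjusted p = 0.0625), with 2 of 3 probe sets of that sign. SOX9, a factor of intestinal progenitors, was at 0.40 (limma adjusted p = 0.0654). TCF3, which encodes E proteins, was at 0.29 (0.183, with 9 of 14 probe sets of that sign). The chromatin protein HMGA2 was at -0.52 (0.223, with 8 of 9). At an unadjusted p under 0.05 the list held these 4 of 15, against 20.6% of all genes.

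Among 12 tested epithelial transcription and splicing factors 0 rose and 0 fell, with a median of 0.15. Of the 12, 2 had an unadjusted p under 0.05, against 20.6% of all genes. OVOL2, a zinc finger repressor of ZEB1 in epithelia, had 5.79 and 5.55 on the CD133+ arrays against 6.66 and 6.35 on the CD133- arrays. The OVOL2 difference was -0.84 (SE 0.22, limma adjusted p = 0.0813), with both of its probe sets negative. EHF, an ETS factor of epithelia, was at -0.51 (limma adjusted p = 0.0907, with 5 of 6 probe sets of that sign). KLF4 was at 0.23 (0.356) and ELF3 at 0.16 (0.440, with 1 of 3). Of the splicing factors that act on exons switched in EMT, 0 of 17 passed in limma. An unadjusted p under 0.05 was found for 4 of the 17, against the same 20.6%. RBFOX2, which favours mesenchymal exons, was at 0.47 (limma adjusted p = 0.0590) with all 4 probe sets of that sign. MBNL1 was at -0.33 (0.0901, with 6 of 7), QKI at -0.44 (0.101, with 7 of 10) and PTBP2 at -0.48 (0.225, with 1 of 2).

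Of 33 tested epithelial junction and polarity genes 1 rose and 0 fell, a share of the list near the 3.65% of all genes, with a median of -0.022. Of the 33, 12 had an unadjusted p under 0.05, against 20.6% of all genes. The gene that rose was CLDN7, a claudin of tight junctions, which had 8.56 and 8.55 on the CD133+ arrays against 7.63 and 7.89 on the CD133- arrays. Its difference was 0.80 (SE 0.14, limma adjusted p = 0.0247). CLDN7 failed to pass without quantile normalization (0.66, adjusted p = 0.0562), with arrays centred on their medians (0.58, 0.118), with a variance without trend (0.0959) or without CD133- replicate 1 (0.66, 0.165). The plakophilins of desmosomes differed in sign, PKP3 at 0.53 (adjusted p = 0.0651) and PKP2 at -0.65 (0.0755), and MARVELD2, tricellulin, was at -0.40 (0.133).

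Other cadherins were mostly dim. Of 18 with a probe set 10 lay below the level filter, and of the 8 tested 0 rose and 0 fell, with a median of 0.29 and 0 with an unadjusted p under 0.05. All 8 were positive, as were 58.5% of all genes tested. CDH15 was at 0.50 (limma adjusted p = 0.309) and CDH26 at 0.33 (0.380, with 3 of 4 probe sets of that sign). CDH11, a cadherin of mesenchyme, was at 0.32 (0.428, with 3 of 4), and CDH17, the intestinal cadherin, at 0.25 (0.440). Of 7 other intermediate filaments of types III and IV 0 passed in limma and 0 had an unadjusted p under 0.05, with NEFM at 0.28 (0.391, with 1 of 2 probe sets of that sign), INA at 0.22 (0.532), PRPH at -0.26 (0.567) and DES at 0.21 (0.639, with 1 of 2).

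Mesenchymal products had a median of 0.14, and 0 of 26 passed in limma. Of the 26, 8 had an unadjusted p under 0.05, against 20.6% of all genes. TNC, the matrix protein tenascin C, was at 0.53 (adjusted p = 0.0636, with 2 of 3 probe sets of that sign), and MMP14, a membrane protease of the matrix, had 7.38 and 7.34 on the CD133+ arrays against 6.35 and 6.83 on the CD133- arrays. MMP14 differed by 0.77 (limma adjusted p = 0.0857), with its 4 probe sets all positive. CCN1 and CCN2, matricellular targets of YAP, were both of negative sign, at -0.51 (0.0717) and -0.81 (0.103). Markers of stromal fibroblasts, a cell type that a clone of a tumour line should not hold, had 11 tested members with 10 positive (58.5% of all genes were), 0 past the threshold in limma and 0 with an unadjusted p under 0.05. COL6A3 and POSTN of that list lay below the level filter. The summed log2 signals of the 11 tested stromal markers were 54.9 and 55.9 in CD133+ and 53.4 and 54.8 in CD133- cells. The part of these markers in the mesenchymal values was not tested. In bulk RNA of this kind, fewer cells with a transcript and less transcript per cell cannot be told apart.

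**Figure D3:**
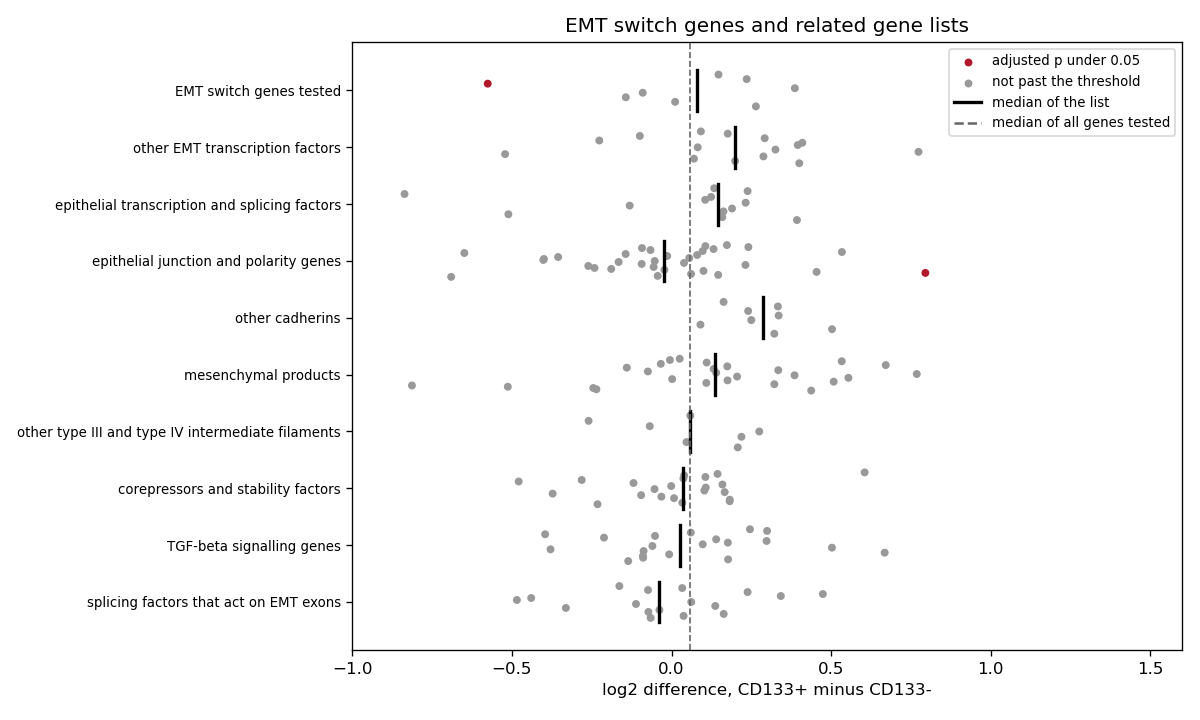
Log2 difference, CD133+ minus CD133- (x axis), of each tested gene in the switch list and in 9 related lists, red where the limma adjusted p was under 0.05, with the median of each list as a black bar and that of all genes (0.058) as a dashed line. Red points are SNAI2 at -0.58 and CLDN7 at 0.80.

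TGF-beta, the best known inducer of SNAI2 and ZEB1, acts through SMAD proteins. Of 20 genes of its signalling 0 rose and 0 fell in limma, with a median of 0.027. Of the 20, 3 had an unadjusted p under 0.05, against 20.6% of all genes. SMAD3, the transducer, was at 0.67 (limma adjusted p = 0.0866, with 3 of 4 probe sets of that sign) and its inhibitor SMAD7 at 0.50 (0.138). SMAD6 was at -0.38 (0.210, with 1 of 4) and the coreceptor TGFBR3 at -0.40 (0.283). Of 22 corepressors and stability factors of SNAI and ZEB proteins 0 passed either, with a median of 0.036. An unadjusted p under 0.05 was found for 4 of the 22, against the same 20.6%. RCOR1 (CoREST), a partner of the histone demethylase that SNAI1 recruits, was at -0.48 (0.0893, with 1 of 2 probe sets of that sign). The LIM proteins WTIP and AJUBA, which bind SNAI proteins, were at 0.61 (0.131) and -0.23 (0.169), and FBXL5, a ubiquitin ligase subunit that acts on SNAI1, was at -0.37 (0.219).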

How the data were processed

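The authors deposited log2 probe-set signals, 1 value per probe set and array, made with Affymetrix Expression Console per the submitters' processing notes. Its version, background correction and normalization are unknown from those notes. The 62 control probe sets were removed, and the other 54613 were quantile-normalised, since the deposited array medians spread over 0.144. The platform annotation gave 19777 genes by single-gene probe sets (41091), with 1801 probe sets naming several genes and 11721 unnamed. A gene was read from its brightest probe set, and the 20% of genes of lowest mean level, below 3.75, were left out.

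The 2 clones were set against each other by limma 3.58.1 (lmFit, eBayes with trend; R 4.3.3), with Benjamini-Hochberg adjustment, over 15821 genes and, with no filter, over 54613 probe sets. With 2 arrays per clone no exact permutation test of 1 gene can reach the threshold, so calls rest on the spread shared across genes, and the number of arrays limits the precision (median SE 0.178). The procedure was also run on simulated arrays that varied independently, with set changes larger than that of SNAI2. That run does not cover a change of the size of SNAI2 or arrays that vary together. Neighbouring genes follow RefSeq order (GRCh38.p14). Genes were named by rule: all switch genes, up to 4 of smallest p in each list, any others called, and 3 nearest to a called switch gene. Members and lists were chosen with earlier results of these data known. Alternatives covered scaling, variance model, filter, probe set choice, threshold, a replicate block and each array left out.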

Additional observations from a re-analysis of the deposited data

How the results depend on the processing

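The 327 values of the switch genes and their probe sets under alternatives gave 286 of the same sign and side of the threshold, 6 newly past it, 5 no longer past it and 30 of the other sign, none of these 30 past the threshold. The 577 called genes became 12 without trend, 3030 with the replicate block, 50 at an adjusted p under 0.01, 247 with the mean of probe sets, and 124 to 706 with 1 array left out (124 without CD133- replicate 1). The 1 called switch gene became 0 without trend, at 0.01 and with probe-set means, 2 with the block, and 0 to 3 with 1 array left out. The 99 called probe sets became 6 as deposited, 32 centred, 2 without trend, 152 with robust settings, 2554 with the block, 6 at 0.01, and 9 to 644 with 1 array left out, and the 0 called probe sets of switch genes became 1 with the block and 0 to 1 with 1 array left out. Same-numbered arrays share only a number in the labels, and their deviations correlated with r = 0.429. With the replicate block CDH1 passed (adjusted p = 0.0189) and SNAI2 had 0.00338, and in the fit of all probe sets SNAI2 had 0.0225.

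Signs turned for ZEB1 (-0.024 as deposited, -0.10 centred, -0.078 with probe-set means), CDH2 (-0.069 with probe-set means), CDH1 201130_s_at (0.0040 as deposited) and ZEB2 228333_at (-0.036 centred). With 1 array left out the ranges were -0.17 to 0.47 for ZEB1 212764_at, -0.49 to 0.22 for ZEB1 210875_s_at, -0.064 to 0.073 for ZEB2 228333_at, -0.32 to 0.076 for ZEB2 233031_at, -0.0016 to 0.30 for ZEB2 233033_at, -0.22 to 0.045 for ZEB2 235593_at, -0.31 to 0.19 for CDH1 201130_s_at, -0.13 to 0.15 for CDH2 203441_s_at, -0.40 to 0.032 for ESRP1 219121_s_at and -0.22 to 0.044 for GRHL2. SNAI2 kept its sign, at -0.68 to -0.47. A clone left with 1 array was assumed to vary like the other. The cause of these changes was not tested. The arrays give no detection calls, so dim signals limit what ZEB2, TWIST1, CDH2 and GRHL2 can show.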

Other observations

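Markers of other cells were read as a check of the clones, and 0 of them passed in limma. At an unadjusted p under 0.05 there were 3 colon epithelial markers and 0 of the others, against 20.6% of all genes. Of the 5 tested endothelial markers all were positive, as were 58.5% of all genes, with a median difference of 0.28 and summed log2 signals of 25.6 and 26.3 in CD133+ against 24.2 and 25.4 in CD133- cells. TEK was at 0.33 (adjusted p = 0.363, with 1 of 2 probe sets of that sign), VWF at 0.28 (0.464), CLDN5 at 0.32 (0.469) and ESAM at 0.17 (0.715). KDR, EMCN and CDH5 (VE-cadherin) lay below the level filter. Of the 6 tested blood cell markers 4 were positive, with a median of 0.14 and sums of 29.7 and 29.6 in CD133+ against 28.7 and 29.6 in CD133- cells. Those of smallest p were LYZ at -0.39 (limma adjusted p = 0.298) and CD3D at 0.39 (0.339). Next were HBB at 0.21 (0.623, with 3 of 4 probe sets of that sign) and CSF1R at 0.15 (0.689). PTPRC (CD45) lay below the filter.

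Colon epithelial markers had a median difference of -0.0043 over 10 tested genes, 5 of each sign. VIL1 (villin) was at -0.35 (limma adjusted p = 0.0691), EPCAM at -0.26 (0.141), KRT8 at -0.17 (0.219) and CDH17 at 0.25 (0.440). Among stromal markers ACTA2 was at 0.44 (0.268, with 2 of 3 probe sets of that sign), LUM at -0.47 (0.307), COL1A2 at 0.26 (0.491, with 2 of 3) and THY1 at 0.25 (0.544).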
